A study of Mus musculus with 9 samples.

Results

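Nr5a1, Akr1c14, Lum, Cdh5 and Lyz2 are genes of the somatic cells of the testis, the cells that surround and support the germ line. They were taken by symbol: a probe was used if its only gene symbol in the platform annotation was one of these 5. This gave 6 probes of 16128, for 5 of the 7117 genes that the annotation names. Akr1c14 had 2 probes and each of the other genes had 1. The names were selected on results of these same arrays, the 15-day log ratios and limma calls included, so the 15-day values below are a description and carry no test.

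The arrays compared whole-testis total RNA of juvenile Spo11-/- and wild-type mice on 2-colour cDNA arrays, 1 sample of each genotype per array, labelled with different dyes. Spo11 encodes the enzyme that makes the DNA breaks of meiotic recombination, and the arrays ask which transcripts differ in a testis without it. There were 4 arrays of mice aged 15 days, all with knockout RNA in Cy3, and 5 arrays of mice aged 12 days, with knockout RNA in Cy5 on 3 of them (replicates 1, 4 and 5) and in Cy3 on the other 2 (replicates 2 and 3). Whole testes of both genotypes hold germ cells and all somatic types together. The sources used here do not give the strain, other alleles or whether a sample pooled animals. Per the series design text, pairs of mice of a litter were used, 4 times over. Since 5 arrays carry the 12-day label, it is not known whether each of those is a pair of its own, and if some share RNA the 12-day p-values and intervals are too small. Replicates are numbered here in order of deposit, and the p-values measure the spread between these pairs.

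Each cell type of the testis outside the germ line has its own work and its own marker genes. Leydig cells, between the tubules, make androgens from cholesterol. Nr5a1 encodes steroidogenic factor 1, a nuclear receptor that switches on the genes of steroid synthesis in Leydig cells and is also made in Sertoli cells. Akr1c14 encodes a 3-alpha-hydroxysteroid dehydrogenase of the aldo-keto reductase family, which metabolises androgens and progestins. Lum encodes lumican, a small leucine-rich proteoglycan that binds collagen fibrils and is made by fibroblasts and other stromal cells. Cdh5 encodes VE-cadherin, which joins endothelial cells to each other in the vessel wall. Lyz2 encodes lysozyme M of macrophages and other myeloid cells. Somatic cells do not enter meiosis. In a whole-testis sample a marker ratio can also move with the share of its cells, and fewer cells of a type and less RNA per cell cannot be told apart. A log ratio holds no level of either sample, so it could not be checked that these cell types were present.

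Promoter sequences were at hand for 2 of the 5 genes, in the RefSeq table of build GRCm38.p6. They are shown for Lyz2, the gene with the lowest 15-day ratio of the 5, and for Akr1c14, a steroid enzyme gene set beside Nr5a1, whose product binds DNA. Both sequences are the 250 bases upstream of the RefSeq start, 5′ to 3′ on the strand of the gene, at chr10:117282273-117282522 (minus strand) for Lyz2 and chr13:4059341-4059590 (plus strand) for Akr1c14. Capitals mark the letters AGGAAG, read on either strand, which contain the core that Ets family factors such as the myeloid factor PU.1 recognise.
Lyz2: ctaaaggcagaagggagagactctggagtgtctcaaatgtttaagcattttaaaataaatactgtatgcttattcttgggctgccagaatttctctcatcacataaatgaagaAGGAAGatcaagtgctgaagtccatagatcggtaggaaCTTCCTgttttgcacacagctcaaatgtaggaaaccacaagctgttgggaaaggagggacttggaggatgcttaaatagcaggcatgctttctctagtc
Akr1c14: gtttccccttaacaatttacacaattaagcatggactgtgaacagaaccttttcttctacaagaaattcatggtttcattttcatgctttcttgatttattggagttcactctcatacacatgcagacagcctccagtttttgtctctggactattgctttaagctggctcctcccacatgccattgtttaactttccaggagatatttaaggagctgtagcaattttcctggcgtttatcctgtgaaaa
The Lyz2 window held AGGAAG once on each strand, from base -137 to -132 and, on the other strand, from base -99 to -94, counted back from the start. Of 32851 RefSeq promoter windows of this length, 29.5% held it. The Akr1c14 window did not hold it. Neither window held, on either strand, AAGGTCA, the letters bound by the Nr5a1 protein (in 4.08% of windows), or the TATA box letters TATAAA (in 12.4%), so no matches overlapped. A match or its absence describes these letters only and says nothing of binding.

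Which way the ratios run could not be settled. If the deposited values are Cy5 over Cy3, as the dye labels would give, a 15-day value above 0 is a gene lower in the knockout, and the opposite holds if they are knockout over wild type. The 15-day arrays had the same dye orientation as 12-day replicates 2 and 3, yet correlated with them below 0 across all probes, at r = -0.25 to -0.11 and -0.38 to -0.33. For this reason the 15-day log2 ratios keep their deposited sign below, and every statement at 15 days that a gene lay above or below 0 turns round with the sign. With knockout RNA in Cy3 on every 15-day array, genotype and a gene's own dye effect cannot be told apart at that age. A dye-adjusted joint fit was therefore also made: it takes in all 9 arrays as Cy5 over Cy3 and estimates the dye effect from the 12-day ones. It was repeated with the 15-day sign turned, and 15-day values of both joint fits are given in the deposited sign. Between 11628 and 14724 probes had a value on an array, with the fewest on 12-day replicates 1 and 2, and the SD of the log2 ratios was 0.21 to 0.47 per array. Spo11 itself was on no annotated probe and could not serve as a check of the labels.

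At 15 days, Nr5a1 and Cdh5 lay above 0 and Lum and Lyz2 below 0, each on all 4 arrays, while Akr1c14 lay close to 0. These 4 genes passed limma's test over all features (Benjamini-Hochberg adjusted p under 0.05), and Akr1c14 did not. The share of all 6958 genes tested that passed was 11.2%, with 4.04% above 0 and 7.2% below 0. Because passing genes were picked, the 4 of 5 says nothing beyond the choice. Having 1 sign on all 4 arrays is common: it held for 14.4% of genes above 0 and 23.1% below 0, among the 6697 genes with 4 values.

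Nr5a1 had log2 ratios of 0.47, 0.54, 0.62 and 0.08 on 15-day replicates 1 to 4. Replicates 1 to 3 lay together and replicate 4 near 0, where 65.7% of all genes had a lower ratio, against 93.0% to 95.4% on the other arrays. The mean was 0.43 ± 0.24 (SD, n = 4), a 1.34-fold ratio.

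Akr1c14, as the mean of its 2 probes, had ratios of -0.10, -0.20, -0.18 and -0.06 at 15 days, with a mean of -0.13 ± 0.07 (SD, n = 4). The spread over arrays was small, with a larger SD for all but 3.98% of genes, but the probes differed. The first probe read -0.34, -0.48, -0.23 and -0.06, with a mean of -0.28 ± 0.18 (SD, n = 4). The second read 0.14, 0.09, -0.12 and -0.05, with a mean of 0.02 ± 0.12 (SD, n = 4). The gap between the probes was 0.48 and 0.57 on replicates 1 and 2 and 0.11 and 0.01 on replicates 3 and 4, so the direction of this gene at 15 days depends on the probe.

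Lum had ratios of -0.26, -0.54, -0.97 and -0.50 on 15-day replicates 1 to 4. All were below 0, replicate 1 the least and replicate 3 the most, where only 1.2% of genes were lower. The mean was -0.57 ± 0.30 (SD, n = 4), a 1.48-fold ratio.

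Cdh5 was the gene of the 5 farthest from 0 at 15 days and also the most variable. Its ratios were 0.32, 0.32, 1.20 and 1.29 on replicates 1 to 4. The array values fell into 2 pairs, and on replicate 4 the gene lay above 99.9% of all genes. Over all probes the arrays paired in the same way, at r = 0.603 for replicates 1 and 2 and 0.588 for replicates 3 and 4. The other 15-day correlations were 0.377 to 0.508, so the pairs are not particular to Cdh5. The mean was 0.78 ± 0.54 (SD, n = 4), a 1.72-fold ratio, and the SD was larger than that of 96.7% of genes, whose median SD was 0.20.

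Lyz2 had ratios of -0.68, -0.22, -0.64 and -0.90 on 15-day replicates 1 to 4. Replicate 2 was nearest to 0, with 28% of genes lower, and replicate 4 was the most extreme, with 0.344% of genes lower. The mean was -0.61 ± 0.28 (SD, n = 4), a 1.53-fold ratio. Lyz2 has a close copy, Lyz1, and the aldo-keto reductases of the Akr1c group resemble each other, so that spotted cDNA may bind transcripts of such relatives. Whether it did here was not tested.

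**Figure D1:**
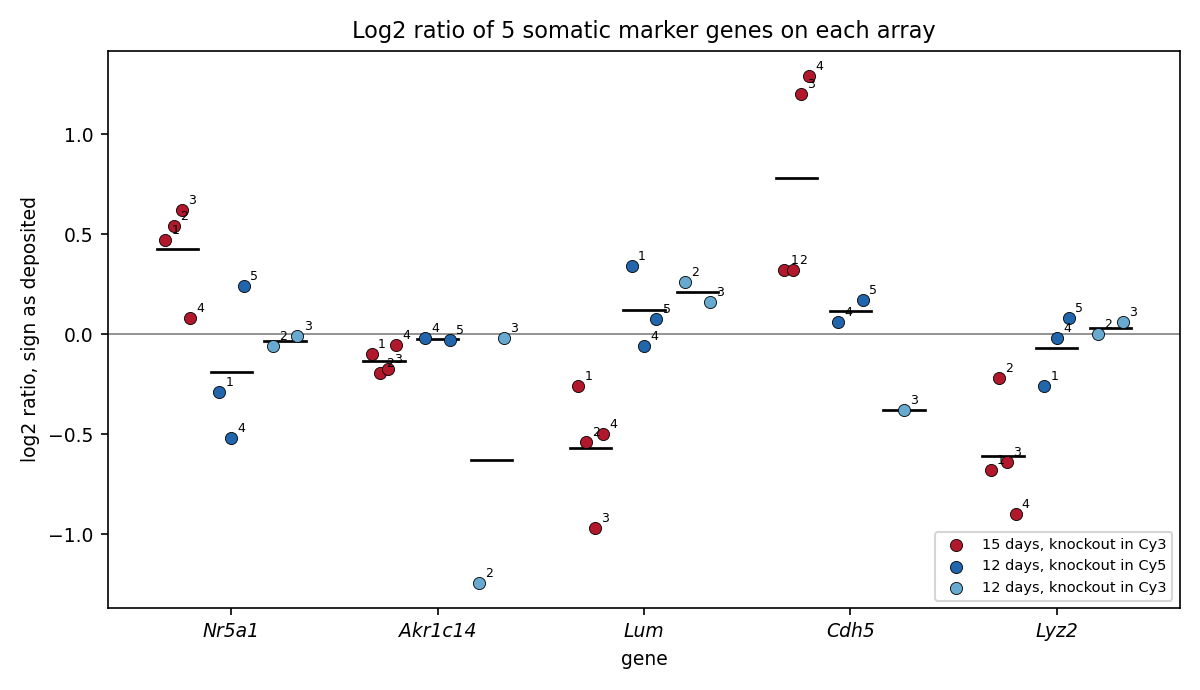
Log2 ratio with the sign as deposited (y axis) of each gene (x axis) on each array; points are arrays, numbered by replicate and coloured by age and by the dye of the knockout RNA, and black bars are means. At 15 days the points of Nr5a1 and Cdh5 are all above 0 and those of Lum and Lyz2 all below, and Akr1c14 has 1 distant point, 12-day replicate 2, at -1.24.

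Values may follow the place of a spot in the probe list, so each probe was set against the median of the 100 spots on either side of it in that list. Whether the order of the list is the place on the array was not checked. Around the 6 probes this neighbour median lay between -0.27 and 0.27 on the 15-day arrays. With it subtracted, the 15-day mean was 0.38 ± 0.22 for Nr5a1, -0.55 ± 0.24 for Lum, 0.84 ± 0.52 for Cdh5 and -0.59 ± 0.15 for Lyz2 (SD, n = 4 each). These 4 genes kept their sign on all 4 arrays, and the means moved by less than their SD. For Lyz2 the spread over arrays was smaller after the subtraction, at 0.15 against 0.28. The first Akr1c14 probe lay below its neighbours on all 4 arrays, at -0.32 ± 0.13, and the second at -0.03 ± 0.08 (SD, n = 4 each).

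**Figure D2:**
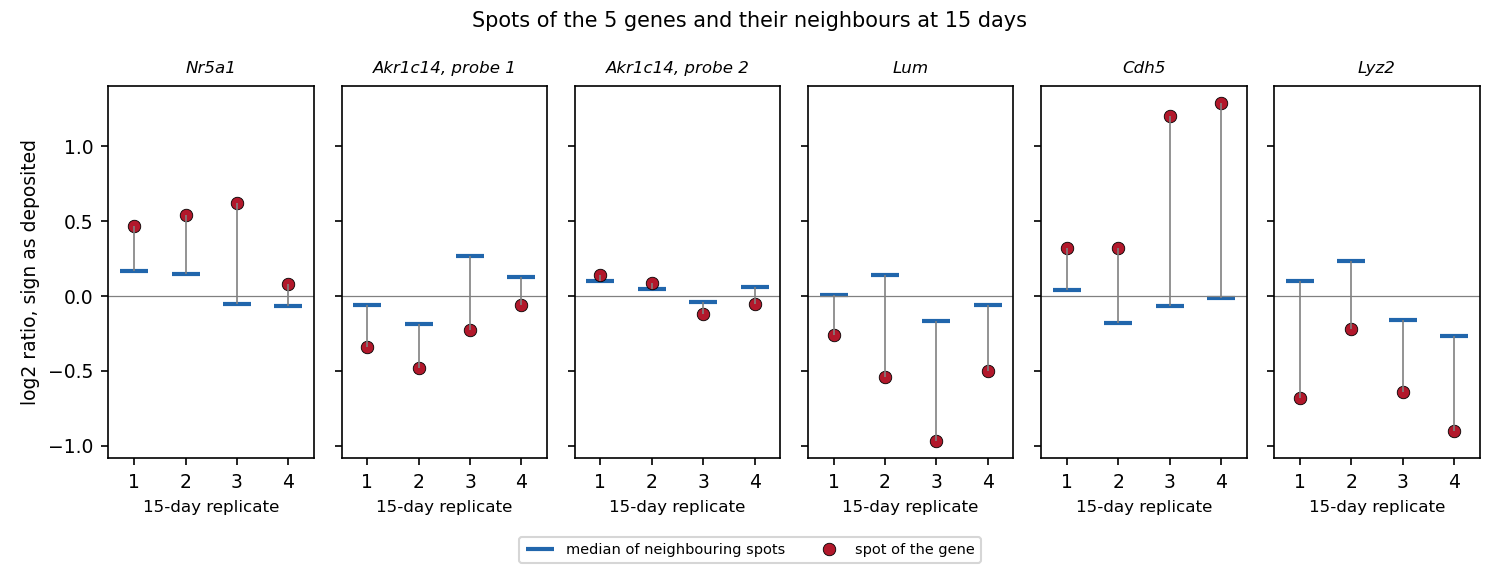
Log2 ratio with the sign as deposited (y axis) of each of the 6 probes (red points) and the median of its neighbouring spots in the probe list (blue bars) on 15-day replicates 1 to 4 (x axis). The distance between point and bar is largest for Cdh5 on replicates 3 and 4 and smallest for the second Akr1c14 probe.

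Leaving out an array cost calls for each of the 4 genes. Passing the limma threshold at 15 days was lost for Nr5a1 without replicate 1, 2 or 3 (means of 0.41, 0.39 and 0.36), for Lum without replicate 2, 3 or 4 (-0.58, -0.43 and -0.59), for Cdh5 without replicate 3 or 4 (0.64 and 0.61) and for Lyz2 without replicate 1, 3 or 4 (-0.59, -0.60 and -0.51). The directions held each time. Over all features the number that passed also fell, from 1515 with all arrays to 711, 586, 357 and 1021 without replicates 1, 2, 3 and 4. A lost call therefore does not show that the array left out carried the value. Lum, at -0.57 with all arrays, was no closer to 0 without replicate 2 or 4.

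At 15 days Col1a1 alone passed among the other measured genes of the Leydig, stromal, endothelial and macrophage lists. Each of the 4 genes was the outermost of its list, a place that follows largely from their choice as passing genes on these arrays. Against the counts at an unadjusted p under 0.05 given below stands a share of 28.7% of all genes, 1999 of 6958, at 15 days. Of the 22 Leydig and steroidogenic genes listed, 9 were measured. Nr5a1 was the highest of them, and none of the 7 genes besides Nr5a1 and Akr1c14 passed limma's threshold (1 at an unadjusted p under 0.05). Their median was 0.04, between -0.16 and 0.27, against a median of -0.02 over all genes. The outer mitochondrial membrane protein gene Tspo lay at 0.27 (limma adjusted p = 0.13), Star, whose product carries cholesterol into mitochondria, at 0.22 (0.31), and Hsd3b1, an enzyme of androgen synthesis, at -0.16 (0.39). Star lay at 0.04 with the neighbour median subtracted, and Hsd3b1 at -0.31. In the dye-adjusted joint fit Tspo lay at 0.06, Star at 0.57 and Hsd3b1 at -0.03. With the 15-day sign turned in that fit they lay at 0.48, -0.13 and -0.30, so these values depend on the reading. Cytochrome P450 enzymes of the same pathway had values on either side of 0, Cyp17a1 at 0.22 and Cyp11a1 at -0.11; these 2 were named after their values were seen.

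Lum was the lowest of 12 stromal and peritubular genes measured of 23 listed. Of the 11 others, 8 lay above 0 and 3 below, with a median of 0.15, and 1 passed above 0. That gene was the fibrillar collagen gene Col1a1, at 0.41 (limma adjusted p = 0.039), opposite to Lum. Its call was lost without any 1 of the 4 arrays (0.33 to 0.45), with the neighbour median subtracted (0.18) and in the dye-adjusted joint fit (0.43). The microfibrillar collagen gene Col6a1 lay at 0.28 (adjusted p = 0.11) and Prelp, a proteoglycan of the same family as lumican, at 0.22 (0.19), and with the neighbour median subtracted they lay at 0.12 and 0.08. The other proteoglycans of that family with a value, Bgn (0.15) and Dcn (0.06), which were named after their values were seen, also lay above 0 without passing.

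Cdh5 was the highest of 4 endothelial genes measured of 21 listed, and all 4 lay above 0. None of the other 3 passed limma's threshold (1 at an unadjusted p under 0.05): the adhesion molecule gene Pecam1 lay at 0.30 (limma adjusted p = 0.091), Emcn, an endothelial sialomucin, at 0.22 (0.16) and the junction gene Esam at 0.10 (0.55). On single 15-day arrays the median of the endothelial list ranged from 0.23 to 0.29, while Cdh5 went from 0.32 to 1.29. With the neighbour median subtracted, Pecam1 lay at 0.15 and Esam at 0.06, and in the dye-adjusted joint fit Esam lay at 0.38. With the 15-day sign turned in that fit Esam lay at -0.18. Among the cadherin family, Cdh5 was the highest of 5 genes measured and none of the other 4 passed in limma (1 at an unadjusted p under 0.05). The epithelial cadherin gene Cdh1 lay at 0.44 (limma adjusted p = 0.079), and its 2 probes differed, the first at 0.70 and, as a feature of its own, past the threshold (0.048), the second at 0.18 (0.37). Without replicate 2 the Cdh1 mean was 0.25. The neural cadherin gene Cdh2 lay at -0.16 (0.30), or -0.07 with the neighbour median subtracted, and Cdh22 at 0.11 (0.63), or 0.03.

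Lyz2 was the lowest of 6 macrophage genes measured of 20 listed. None of the other 5 passed in limma, 0 of them also at an unadjusted p under 0.05. Of these, 3 lay above 0 and 2 below, and their median was 0.05. The complement genes C1qc and C1qa, which tissue macrophages make, lay on opposite sides at -0.25 and 0.23 (limma adjusted p = 0.18 and 0.33), and Fcer1g, a signalling chain of Fc receptors, at 0.15 (0.40). With the neighbour median subtracted C1qc lay at -0.16 and C1qa at 0.09, and in the dye-adjusted joint fit at -0.50 and 0.34. With the 15-day sign turned in that fit they lay at 0.005 and 0.11.

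None of 7 aldo-keto reductase family genes passed in limma (1 at an unadjusted p under 0.05). Akr1c14 lay level with Akr1a1 (both -0.13, limma adjusted p = 0.38 for Akr1a1), above Akr1cl alone (-0.31, 0.078). Akr1cl lay at -0.11 with the neighbour median subtracted, and Akr1c19 at 0.30 (0.19), or 0.13 with it subtracted.

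Sertoli cells, which nurse the germ cells inside the tubules, and red blood cells gave the other somatic lists. None of 11 Sertoli genes passed limma's threshold at 15 days (0 at an unadjusted p under 0.05), with a median of -0.01. Wt1, a transcription factor gene of Sertoli cells, lay highest at 0.46 (limma adjusted p = 0.17), from -0.06 and -0.07 on replicates 1 and 2 to 1.35 and 0.63 on replicates 3 and 4. These are the arrays on which Cdh5 was high too, and they also paired with each other over all probes (r = 0.588). The inhibin gene Inha lay at 0.22 (0.19), but at -0.05 in the dye-adjusted joint fit, and Clu, which encodes clusterin, at 0.19 (0.38). With the 15-day sign turned in that fit Inha lay at 0.49. None of 5 red blood cell genes passed in limma (0 at an unadjusted p under 0.05), with a median of 0.00. That median is the value of Hbb-y, which was named after its value was seen. The heme synthesis gene Alas2 lay at 0.14 (limma adjusted p = 0.43), the globin gene Hbb-b1 at 0.09 (0.69) and the embryonic globin gene Hba-x at -0.06 (0.82).

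Germ cell markers also changed at 15 days, and their part in the somatic ratios was not tested. These lists were drawn up with results of these arrays known, so their counts are not independent evidence of a direction. Of 6 pachytene spermatocyte genes 5 passed below 0 and none above, with a list median of -1.07 and medians of -1.27 to -0.74 on single arrays. The 3 of smallest p were Rsph1 (-1.73), Lyar (-1.56) and Slc2a3 (-2.16), with limma adjusted p = 0.0013, 0.0019 and 0.0019. Without replicate 3, 3 of the 6 passed. Of 11 spermatogonial genes 3 passed above 0 and none below, with a median of 0.35: Etv5 (1.20, limma adjusted p = 0.0050), Ccnd1 (0.42, 0.031) and Uchl1 (0.36, 0.046). Etv5 alone passed without each of the 4 arrays. Ccnd1 and Uchl1 did not pass with the neighbour median subtracted (0.26 for each) or in the dye-adjusted joint fit (0.45 and 0.16), nor Uchl1 with mean centring (0.33) or quantile normalization (0.29). With the 15-day sign turned in the joint fit Ccnd1 and Uchl1 lay at 0.38 and 0.55, also without passing. The ratios of Lum and Lyz2 had the sign of the pachytene genes and those of Nr5a1 and Cdh5 that of the spermatogonial genes. Either sign would have matched a germ cell list, so the match says nothing of a link. Each of these ratios lay closer to 0 than the median of the pachytene list and farther from 0 than that of the spermatogonial list.

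**Figure D3:**
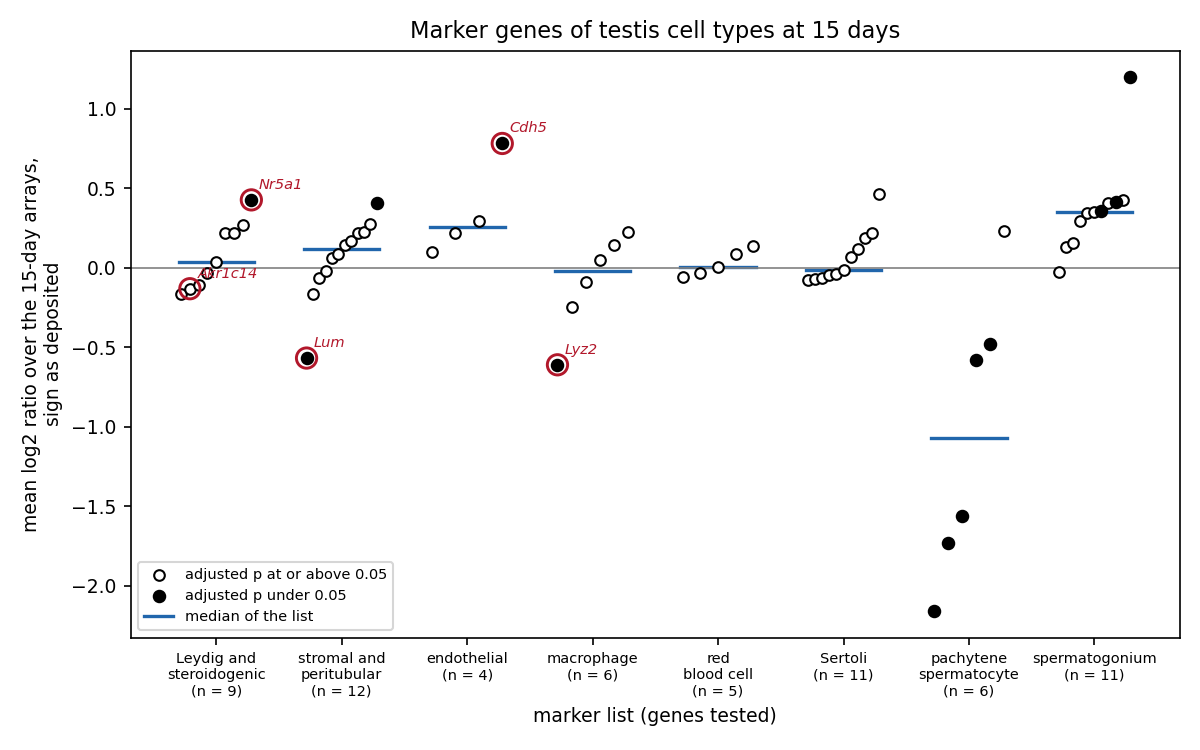
Mean log2 ratio over the 15-day arrays with the sign as deposited (y axis) of each measured gene of the marker lists (x axis, with the number tested); filled points passed limma's threshold, blue bars are list medians and red circles mark the 5 genes. Nr5a1, Cdh5, Lum and Lyz2, chosen on these arrays, are the outermost points of their lists, whose medians lie between -0.02 and 0.26, and the pachytene list lies lower, with a median of -1.07.

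At 12 days, arrays of both dye orientations allow a knockout effect to be separated from a gene's own dye effect. No feature passed: limma called 0 of 10075, with 269 at an unadjusted p under 0.05, and the background share was 0%. Among genes, 120 of 6237 (1.92%) had an unadjusted p under 0.05, less than the 0.05 share that no effect at all would give. The absence of calls therefore does not show that there was no effect at 12 days. Of the 5 genes 4 had enough values to be tested. The knockout effects that follow take the deposited ratios as Cy5 over Cy3, and all turn sign if that is wrong.

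The 12-day estimates of Nr5a1, Lum and Lyz2 were within 0.08 of 0. Nr5a1 had ratios, as deposited, of -0.29, -0.52 and 0.24 with knockout in Cy5 (replicates 1, 4 and 5) and of -0.06 and -0.01 with knockout in Cy3 (replicates 2 and 3). The arrays of the 2 orientations overlapped, and on replicate 4 only 1.23% of genes lay lower. The knockout effect was -0.08 (SE 0.12, 95% interval -0.38 to 0.22, limma adjusted p = 1.0). As deposited, all but replicate 5 lay below every 15-day value of this gene, and the values of replicate 5 (0.24) and 15-day replicate 4 (0.08) made the ages overlap. Of the 12-day arrays, only replicates 2 and 3 share the dye orientation of the 15-day arrays.

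Lum had ratios, as deposited, of 0.34, -0.06 and 0.08 with knockout in Cy5 and 0.26 and 0.16 with knockout in Cy3. Turned by the dyes, 2 arrays lay above 0 and 3 below. The effect was -0.05 (SE 0.09, 95% interval -0.27 to 0.18, limma adjusted p = 1.0). As deposited, each 12-day value lay above each 15-day value, but only replicates 2 and 3 share the dye orientation of the 15-day arrays. Turned by the dyes, the ages met under either reading. The 12-day values of 0.34 (replicate 1) and -0.26 (replicate 2) stood against 15-day replicate 1 at 0.26, or -0.26 with its sign turned.

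Lyz2 had ratios, as deposited, of -0.26, -0.02 and 0.08 with knockout in Cy5 and 0.00 and 0.06 with knockout in Cy3. The arrays stayed near 0, replicate 1 being the lowest. The effect was -0.05 (SE 0.09, 95% interval -0.26 to 0.16, limma adjusted p = 1.0). As deposited, the ages overlapped, since 15-day replicate 2 (-0.22) lay above 12-day replicate 1.

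Akr1c14 was read on 4 arrays at 12 days and its estimate rested on 1 spot. The ratios as deposited were -0.02 and -0.03 with knockout in Cy5 (replicates 4 and 5) and -1.24 and -0.02 with knockout in Cy3 (replicates 2 and 3). On replicate 2 only the first probe had a value, and 0.212% of genes lay lower. The effect was 0.30 (SE 0.21, 95% interval -0.21 to 0.82, limma adjusted p = 1.0), and without replicate 2 it was -0.0023.

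Cdh5 had values on 3 of the 12-day arrays and was not tested. They were 0.06 and 0.17 with knockout in Cy5 and -0.38 with knockout in Cy3, so that turned by the dyes all 3 lay above 0, at 0.06, 0.17 and 0.38. As deposited, each 12-day value lay below each 15-day value, but only replicate 3 (-0.38) shares the dye orientation of the 15-day arrays. Turned by the dyes, the ages did not overlap under the Cy5 over Cy3 reading. With the 15-day sign turned they did, 0.38 lying above 15-day replicates 1 and 2 (0.32 on each).

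As lists, 0 genes of any marker list passed limma's threshold at 12 days, and 1, the embryonic globin gene Hba-x at -0.36, had an unadjusted p under 0.05, as 1.92% of all genes had. The medians were 0.01 for 9 Leydig and steroidogenic, 0.04 for 12 stromal and peritubular, -0.08 for 6 macrophage and -0.05 for 10 Sertoli genes, and 0.02 for the 2 endothelial genes tested. The 4 red blood cell genes tested all lay below 0, with a median of -0.15, and the medians were -0.22 for 5 pachytene and -0.05 for 11 spermatogonial genes. The median over all genes was -0.01.

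The direction of the difference between the ages depended on the reading for Nr5a1, Lum and Lyz2. Under the Cy5 over Cy3 reading, the 15-day minus 12-day difference in the knockout effect was -0.46 (SE 0.23) for Nr5a1, 0.78 (SE 0.21) for Lum, 0.64 (SE 0.20) for Lyz2 and -0.50 (SE 0.30) for Akr1c14. With the 15-day sign turned it was 0.39, -0.36, -0.58 and -0.76, with the same SE. These differences share the 15-day arrays on which the genes were chosen and are given with no test. They set the 15-day arrays against 12-day replicates 2 and 3 only, since all 15-day arrays had knockout in Cy3. Without 12-day replicate 2, the difference of Akr1c14 under the Cy5 over Cy3 reading was 0.11. Over all features, 2.34% passed for the age difference under the Cy5 over Cy3 reading and 0% with the sign turned.

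**Figure D4:**
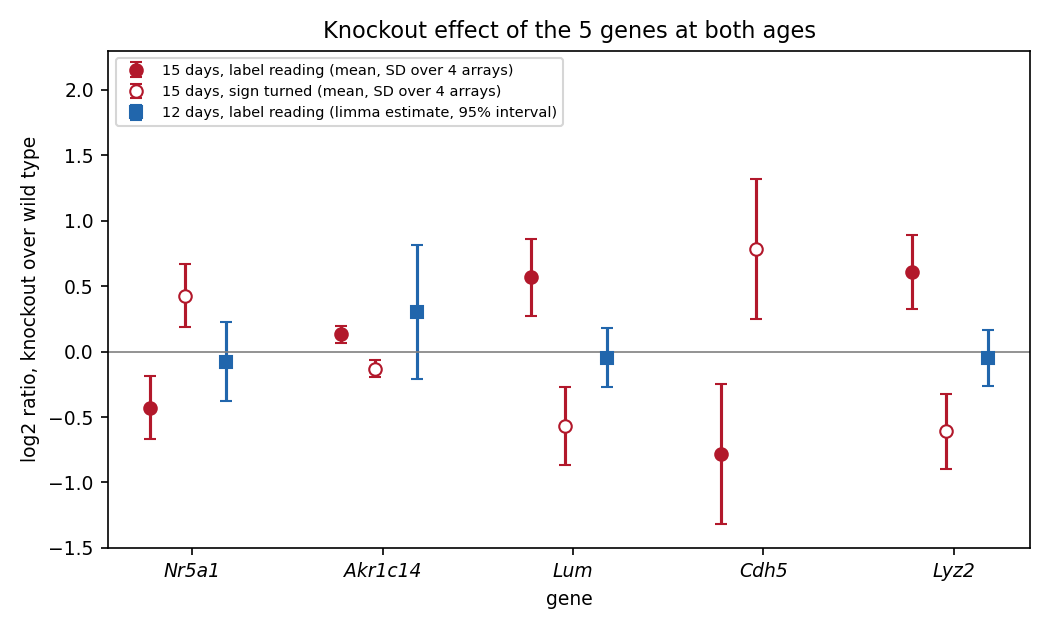
Log2 ratio of knockout over wild type (y axis) of each gene (x axis). Red points are 15-day means with SD over 4 arrays, filled under the Cy5 over Cy3 reading and open with the sign turned; blue squares are 12-day limma estimates with 95% intervals, which all span 0, and Cdh5 had too few 12-day values for one.

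The genes most like each of these were found by the Pearson correlation over all arrays, as deposited, among genes with at least 8 shared values. This is a description over arrays of both ages that share a platform and 2 dye layouts. Nr5a1 was most like Ppp1r10 (r = 0.965, 8 arrays), the transcription factor gene Klf4 (0.951, 9 arrays) and the early response gene Ier3 (0.947, 9 arrays). These correlations were 0.914, 0.959 and 0.972 without the 2 arrays on which Nr5a1 was farthest from its median. Lum was most like the checkpoint ubiquitin ligase gene Chfr (0.977, 9 arrays), Pithd1 (0.976, 8 arrays) and the kinetochore gene Dsn1 (0.973, 9 arrays), with 0.947, 0.934 and 0.927 without its 2 farthest arrays. Lyz2 was most like Zswim8 (0.958, 9 arrays), the mitochondrial ribosome gene Mrpl18 (0.943, 8 arrays) and AW550831 (0.930, 9 arrays), with 0.930, 0.916 and 0.846. None of these 9 genes is on the marker lists used here. As deposited, the mean of each differed between the ages in the direction of the gene it resembled. Chfr, for example, lay at -0.305 at 15 days and 0.292 at 12 days, and Ppp1r10 at 0.05 and -0.134. The 12-day means mix both dye orientations. For Akr1c14 the likeness rested on 12-day replicate 2: Morn1, Vapa and Cspp1 (0.969, 0.966 and 0.961, 8 arrays) lay at -1.85, -1.15 and -0.78 there, and without the 2 farthest arrays the correlations were 0.669, -0.487 and 0.361. Cdh5 had 7 values, too few for this comparison.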

How the data were processed

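Each array gave 1 log ratio per spot for a Spo11-/- and a wild-type testis sample. Per the series design text, the authors scanned the arrays with a GenePix scanner, flagged spots with GenePix software, median-centred every array and used SAM for calls. The deposited values are log ratios read here as log2; the sources used here state neither the log base nor the background correction nor the ratio direction. No intensities were used, signal over background is therefore unknown, and precision is limited by how many arrays there are.

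Of 16128 probes, 9604 had 1 gene symbol, 213 several and 6311 none. Symbols were updated by Entrez ID through a RefSeq table of GRCm38.p6 (98.9% matched). Probes of a gene were averaged, and the rest kept as features of their own. The number of columns that belong to no sample was 0. Tests used limma 3.58.1 in R 4.3.3 (lmFit, eBayes, two-sided, Benjamini-Hochberg over all features), on features that had 3 or more values at 15 days, or at least 4 values and both dye orientations at 12 days, where the model held a dye intercept. For the age difference, 1 model took in all 9 arrays, with the dye term shared. Scripts were tested on simulated data. The 5 genes and the marker lists were chosen with earlier results of these data known. Named besides the 5 genes were up to 3 genes of smallest 15-day p from each list and the 3 genes most like each of the 5. Alternatives covered centring, scaling, quantile normalization, neighbouring spots, missing values, robust empirical Bayes, single probes, a stricter threshold, dye terms, the array title numbers, the direction and each array left out; the joint fit with the 15-day sign turned was added after seeing the data.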

Additional observations from a re-analysis of the deposited data

Results flagged for a closer look

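Akr1c14 stood apart on 12-day replicate 2, at 1.24 under the Cy5 over Cy3 reading (knockout over wild type), against -0.03 to 0.02 on the 3 other arrays with a value. Star stood apart on 12-day replicate 1, at -1.38 against -0.03 to 0.30, and Slc2a3 on 12-day replicate 3, at -2.36 against -0.17 to 0.61. Etv5 stood apart on 15-day replicate 3, at 1.96 as deposited against 0.85 to 1.02. These are the 4 of 64 groups of 4 or 5 arrays in which 1 array passed Dixon's critical value, where chance gives about 1 in 20.

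Cdh5 had opposite signs on all arrays of the ages under the Cy5 over Cy3 reading, with a 15-day mean of -0.78 and a 12-day mean of 0.20, a difference of -0.99, and Col6a1 had means of -0.28 and 0.13, a difference of -0.41. The Cdh5 difference was not tested. That of Col6a1, fitted as -0.39 (SE 0.17), did not pass in limma (adjusted p = 0.23), and with the sign turned it was 0.16 (0.90). With the 15-day sign turned all Cdh5 values were above 0. The age difference of Slc2a3 (3.42), Rsph1 (2.33) and Lyar (2.17) under the Cy5 over Cy3 reading passed limma's test, with adjusted p = 0.023, 0.024 and 0.029. With the sign turned no feature passed. The 12-day side of these differences is replicates 2 and 3 only, and these arrays lay far apart. As deposited they read 0.17 and 2.36 for Slc2a3, 0.04 and 1.16 for Rsph1 and -0.18 and 1.395 for Lyar. The Slc2a3 value on replicate 3 is the one flagged above. Each of these values lay above every 15-day value of its gene, but replicate 3 adds much to the size. Whether these genes pass without replicate 3 was not tested.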

How the results depend on the processing

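With the 15-day sign turned, Nr5a1 lay at -0.43, Lum at 0.57, Cdh5 at -0.78 and Lyz2 at 0.61, and Col1a1 at -0.41, Rsph1 at 1.73, Lyar at 1.56, Slc2a3 at 2.16, Etv5 at -1.20, Ccnd1 at -0.42 and Uchl1 at -0.36. Under the other alternatives run, Lum, Cdh5, Lyz2 and Nr5a1 kept their 15-day direction, with values of -0.73 to -0.40, 0.61 to 0.94, -0.74 to -0.51 and 0.32 to 0.54, while Akr1c14 ranged from -0.46 to 0.20. Nr5a1 no longer passed with mean centring (0.40), quantile normalization (0.32) or a dye-adjusted joint fit of all arrays (0.54), and none of the 4 met the stricter rule, an adjusted p under 0.01 together with 1.5-fold. In the joint fit with the 15-day sign turned, Nr5a1, Lum and Lyz2 did not pass (limma adjusted p = 0.44, 0.29 and 0.14). Cdh5 had too few 12-day values for either joint fit, so its ratio was never dye-adjusted. Of the features tested at 15 days 1515 passed, 242 under that stricter rule, 763 in the joint fit and 17 in it with the 15-day sign turned, which tests fewer features, and 357 to 1021 with 1 array left out. With quantile normalization 745 passed above 0 and 850 below, against 860 and 655. At 12 days 0 passed under each alternative run, also with 1 array left out. For the age difference 231 passed, 535 with scaled arrays, 796 with quantile normalization, 495 with neighbouring spots subtracted, 0 with the 15-day sign turned and 10 to 465 with 1 array left out; the cause of these shifts was not tested. Without the 5 genes, the spermatogonial count fell from 3 to 1 without any 1 of the 15-day arrays. Each ratio already pairs a knockout and a wild-type sample, and the labels give no replicate number to block by further; with the number range of the array titles as a block, 0 passed at 12 days. Depth is unknown, as the values hold no intensities.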
